A study of Heterocephalus glaber with 9 samples.

Results

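The 10 genes described here carry the core of iron handling in the liver of the naked mole-rat, a long-lived subterranean rodent. They are the hepcidin gene HAMP with 3 genes that feed into its control (BMP6, HFE and TFR2), the plasma carrier transferrin (TF), the uptake genes TFRC and SLC11A2, the exporter SLC40A1, and the ferritin subunits FTH1 and FTL. They were chosen by gene symbol for their known role, by a rule that uses no measured value, although earlier results of these data were known when the set was drawn up, and all 10 were found among the 16339 rows of the count table. Of these, 9 passed the filter on low counts and were tested, and BMP6 did not pass it.

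As background, the liver is both the store and the control point of body iron. Hepatocytes release hepcidin, a peptide hormone that binds the exporter ferroportin and causes its removal from the cell surface, so that less iron leaves macrophages, hepatocytes and the gut. Hepcidin is switched on by iron through bone morphogenetic protein (BMP) ligands made by the sinusoidal endothelium and the SMAD proteins they activate, and by inflammation through interleukin-6 and STAT3. Inside cells, iron regulatory proteins bind the mRNAs of ferritin, the transferrin receptor and other iron genes, so that much of the control of ferritin lies in translation and is not seen in mRNA levels.

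Polyadenylated liver RNA from 9 male naked mole-rats was sequenced as 1 library per animal. The 3 old animals, called A, B and C here, were non-breeders of 20, 30 and 20 years by the labels. The 6 young animals were 3.4, 2.7, 4.1, 3.7, 3.8 and 2.8 years old (young livers 1 to 6), and the labels do not give their reproductive status. The methods of the study set the minimum age of the old animals slightly above the lower labelled age, so that these ages are approximate. The labels name no treatment, and the comparison asks which liver genes differ with adult age. The young libraries are marked as re-used from earlier work and the dated sample prefixes differ between the ages, so that age and origin of the library cannot be told apart.

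Between 15176226 and 20048731 reads per old liver and between 14541856 and 20464409 reads per young liver were counted in genes. Of 12277 genes tested with edgeR, 1437 (11.7%) passed a false discovery rate (FDR) of 0.1 with higher values in old livers and 448 (3.65%) with lower values, 15.4% in all, and the median log2 fold change of all tested genes was 0.02. A pair of libraries stood apart. Old liver A correlated with B and C at a Spearman rho of 0.918 to 0.924, whereas B and C correlated at 0.992, and the oldest young liver (young 3) correlated with the other young livers at 0.948 to 0.955. Albumin (ALB) took 1.41% of the counts in A, 7.69% in B and 6.99% in C, against 7.86% to 14.8% in young livers, and the humanin-like gene MTRNR2L4 took 10.1% in A and 11.9% in the oldest young liver, against 2.43% to 4.18% in the other 7. Values below are CPM, a gene's reads divided by the library's scaled total and set to a common size, which are not scaled by gene length and are therefore compared between livers and not between genes. In whole-liver RNA, fewer cells of a type and less RNA per cell cannot be told apart.

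HAMP was higher on average in old livers, but whether the difference passed the threshold with all 9 livers depended on the test: it did not with edgeR, and it did with DESeq2 and with limma voom. HAMP was at 462 CPM in A, 914 CPM in B and 626 CPM in C, against a lowest value of 86.0, a median of 220 and a highest of 579 CPM in young livers. The groups overlapped in 1 young animal, the oldest, whose 579 CPM lay above A and below C, and the next highest young liver was at 356 CPM. The means were 667 ± 228 CPM in old livers (SD, n = 3) and 274 ± 172 CPM in young livers (SD, n = 6), a ratio of 2.43. The fitted log2 fold change was 1.28 (SE 0.48, 95% interval 0.22 to 2.34) with an edgeR FDR of 0.116. On the same 9 livers DESeq2 gave 1.26 (FDR 0.0713) and voom with quality weights, which gives less weight to libraries that vary more, gave 1.85 (FDR 0.0073). These values rest on ample reads, with 8276, 20376 and 13501 HAMP counts in A, B and C and 1728 to 8766 in young livers. Leaving out the oldest young liver alone brought the log2 fold change to 1.65 at an edgeR FDR of 0.0455, and HAMP stayed uncalled in edgeR when any other single liver was left out.

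BMP6 encodes the BMP ligand through which iron loading raises hepcidin in mice. It had 2 counts in A, 11 in B and 10 in C, against a lowest of 1, a median of 4.5 and a highest of 6 counts in young livers. Counts this low could not show a difference at this depth, and a fit without the filter gave a log2 fold change of 0.61 with an edgeR FDR of 0.566.

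HFE, the membrane protein altered in the most common hereditary iron overload of people, was measured at 12.5, 48.4 and 52.4 CPM in A, B and C, against a lowest of 22.0, a median of 62.6 and a highest of 65.8 CPM in young livers. The low values were those of A and of the oldest young liver, and the ranges overlapped. The log2 fold change was -0.57 (95% interval -1.58 to 0.43, edgeR FDR 0.408), and it was -0.16 (edgeR FDR 0.855) without A. TFR2, the hepatocyte receptor that takes part with HFE in sensing iron-loaded transferrin, was at 1264, 942 and 845 CPM in A, B and C, against a lowest of 615, a median of 794 and a highest of 943 CPM in young livers. Only A lay above all young livers. The TFR2 log2 fold change was 0.35 (95% interval -0.17 to 0.87, edgeR FDR 0.333), and it was 0.16 without A.

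**Figure D1:**
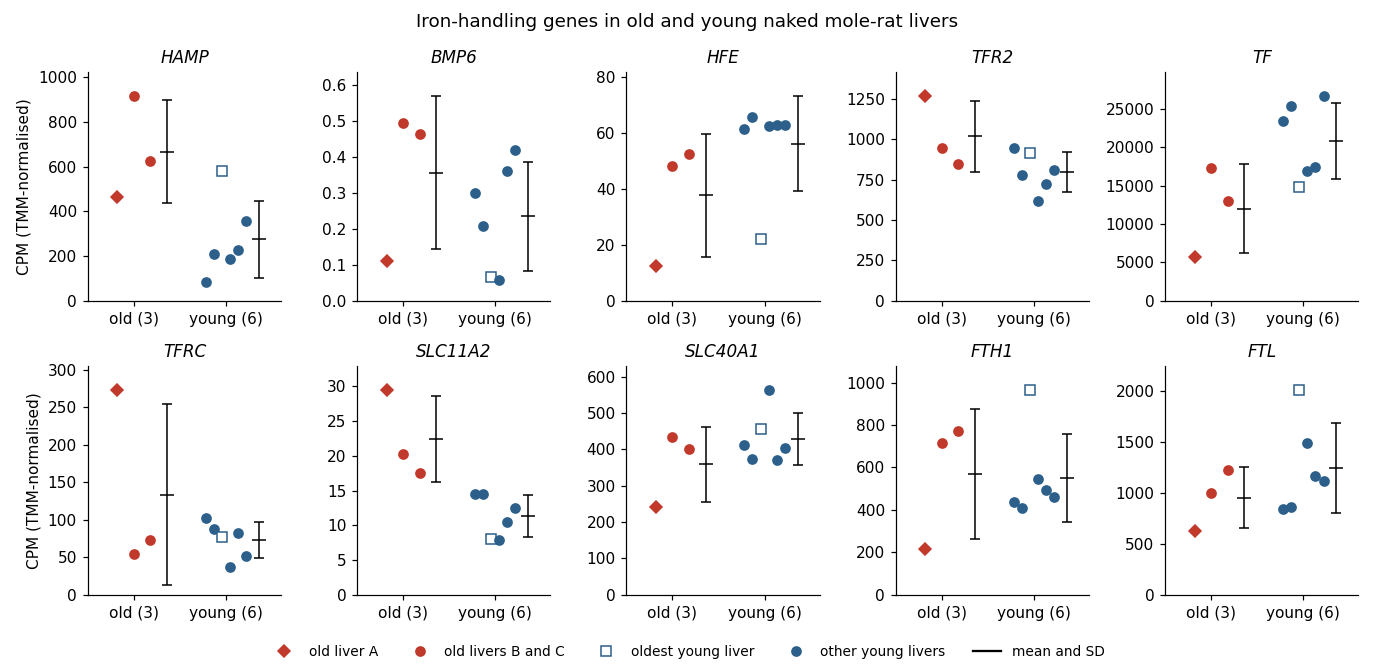
Level of each of the 10 iron genes in every liver, in CPM on a vertical axis of its own for each panel, with old livers left of young livers, a point per animal and the bar and whiskers giving mean and SD (n = 3 old, n = 6 young). SLC11A2 is the panel in which every old liver (17.6 to 29.4 CPM) lies above every young liver (7.86 to 14.5 CPM), whereas the HAMP groups overlap only through the oldest young liver at 579 CPM.

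Among the transport genes, the difference that passed the test was that of SLC11A2, which encodes the divalent metal transporter DMT1 that moves ferrous iron out of endosomes. SLC11A2 was at 29.4 CPM in A, 20.3 CPM in B and 17.6 CPM in C, against a lowest of 7.86, a median of 11.5 and a highest of 14.5 CPM in young livers. Every old liver lay above every young liver, with 526, 452 and 379 counts in A, B and C and 121 to 292 counts in young livers. SLC11A2 rose to 22.4 ± 6.19 CPM in old livers (SD, n = 3), against 11.3 ± 3.01 CPM in young livers (SD, n = 6), a log2 fold change of 0.99 (SE 0.27, 95% interval 0.38 to 1.59, edgeR FDR 0.0608). This was 1 of 9 tested members, beside 11.7% of all tested genes called higher and 3.65% called lower, and it was also the only member whose groups did not overlap, beside 9.83% of all tested genes with every old liver above and 8.01% with every old liver below the young ones (17.8% in all). None was called lower with edgeR. At an unadjusted p under 0.05 in edgeR, 0 were lower and 2 higher, beside 1139 and 2436 of all 12277 tested genes. Voom called 3 higher and 1 lower, TF, beside 2511 and 2052 of all tested genes. The SLC11A2 call was lost without A (log2 fold change 0.74, edgeR FDR 0.195) and without young liver 2, 4, 5 or 6 (edgeR FDR 0.110 to 0.124), each time with the same direction.

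TF encodes transferrin, which carries ferric iron in plasma and is made by hepatocytes. It was at 5754 CPM in A, 17277 CPM in B and 12956 CPM in C, against a lowest of 14875, a median of 20390 and a highest of 26619 CPM in young livers. A and C lay below every young liver and B within their range. TF averaged 11996 ± 5821 CPM in old livers (SD, n = 3) and 20763 ± 4956 CPM in young livers (SD, n = 6), with a log2 fold change of -0.79 (SE 0.37, 95% interval -1.61 to 0.03) and an edgeR FDR of 0.181. Without A the TF value was -0.46 (edgeR FDR 0.427), and voom called TF lower on all 9 livers, at -0.55 (FDR 0.0563).

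TFRC, the transferrin receptor of most cell types, stood out in 1 old liver, A. TFRC was at 273 CPM in A, 54.6 CPM in B and 73.5 CPM in C, against a lowest of 36.8, a median of 80.2 and a highest of 103 CPM in young livers. B and C thus lay within the young range and A far above it. The log2 fold change of 0.87 (95% interval -0.19 to 1.93, edgeR FDR 0.245) turned to -0.19 when A was left out. Since red cell precursors carry much TFRC, the erythroid markers were read beside it: they summed to 66.4, 65.4 and 108 CPM in A, B and C, against 225 to 913 CPM in young livers. Of 5 tested, edgeR called 0 higher and 3 lower in old livers, beside 11.7% and 3.65% of all tested genes. The part of red cell RNA in the TFRC values was not tested.

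SLC40A1 encodes ferroportin, the exporter that hepcidin acts on. It was at 241, 433 and 402 CPM in A, B and C, against a lowest of 371, a median of 407 and a highest of 562 CPM in young livers. B and C lay within the young range and A below it. The SLC40A1 log2 fold change was -0.26 (95% interval -0.83 to 0.31, edgeR FDR 0.513), and it was -0.04 without A. In liver, ferroportin is made mainly by macrophages and hepatocytes. The Kupffer cell markers summed to 169, 730 and 638 CPM in A, B and C, against 521 to 685 CPM in young livers, so that A was low in both. Of 11 tested, 0 were called with edgeR, 1 was lower at an unadjusted p under 0.05, and voom called 3 higher and 1 lower. Of all 12277 tested genes, 2436 were higher and 1139 lower at that p, and voom called 2511 higher and 2052 lower. The part of Kupffer cell RNA in the SLC40A1 values was not tested.

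The ferritin subunits, FTH1 with the ferroxidase activity and FTL with the role of seeding the iron core, showed no difference past the threshold with edgeR or DESeq2 on all 9 livers, whereas voom called FTH1 higher at 0.64 (FDR 0.0104). FTH1 was at 216, 716 and 773 CPM in A, B and C, against a lowest of 410, a median of 477 and a highest of 963 CPM in young livers, the highest being the oldest young animal. The ranges overlapped from both sides, with A below every young liver and the oldest young liver above every old one. FTL was at 631, 1005 and 1222 CPM in A, B and C, against a lowest of 843, a median of 1141 and a highest of 2007 CPM in young livers. Again A lay below all young livers, and B and C within their range. The log2 fold changes were 0.04 for FTH1 (95% interval -0.87 to 0.95, edgeR FDR 0.952) and -0.39 for FTL (95% interval -1.14 to 0.37, edgeR FDR 0.456), intervals that leave room for a change of either sign. Without A they were 0.43 for FTH1 (edgeR FDR 0.499) and -0.16 for FTL, and FTL was at -0.20 without the oldest young liver. Ferritin genes have processed copies in many mammalian genomes, and reads shared with such copies can be lost or misplaced in counting, so that both levels are uncertain.

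Because A and the oldest young liver stood apart, the fit was repeated without both, leaving 2 old and 5 young livers. In that fit 14.2% of 12377 genes passed as higher and 11.7% as lower in old livers, so that a call was more common than with all livers. Of the members, 3 were called higher and 1 lower. HAMP had a log2 fold change of 1.85 (95% interval 0.86 to 2.84, edgeR FDR 0.029), FTH1 of 0.67 (95% interval 0.34 to 1.00, edgeR FDR 0.0197) and SLC11A2 of 0.66 (edgeR FDR 0.0694). HFE was lower, with a log2 fold change of -0.32 (edgeR FDR 0.0647). TF kept a negative value of -0.54 (95% interval -1.09 to 0.02) without passing the threshold (edgeR FDR 0.164). The remaining members were closer to 0 or wide, with log2 fold changes of 0.21 for TFR2, -0.17 for TFRC, 0.02 for FTL, -0.02 for SLC40A1 and 0.85 for BMP6 (95% interval -0.38 to 2.07).

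**Figure D2:**
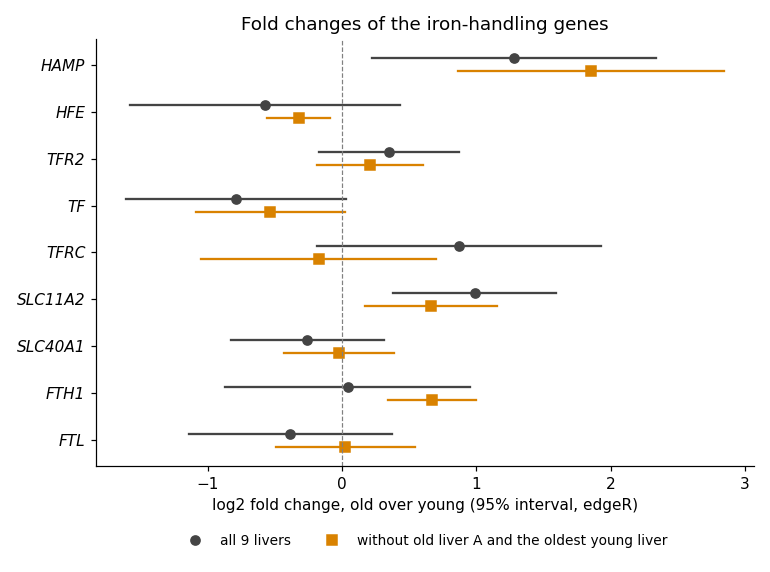
Log2 fold change, old over young, of the iron genes with its 95% interval on the horizontal axis, fitted with edgeR on all 9 livers and again without old liver A and the oldest young liver, with 0 marked by a line. The HAMP value moves between 1.28 and 1.85, the FTH1 value between 0.04 and 0.67 and the SLC11A2 value between 0.99 and 0.66. The HAMP and SLC11A2 intervals stay above 0 in both fits.

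Ratios within a liver do not depend on the scaling of the library. For the ferritin subunits, the log2 ratio of FTH1 to FTL was -1.55 in A, -0.49 in B and -0.66 in C, against -1.45 to -0.95 in young livers. B and C thus lay above every young liver and A below them, and the difference of 0.28 between means was not significant in an exact two-sided permutation test (p = 0.31, adjusted p = 0.464 over 3 ratios). For the receptors, the mean log2 ratio of TFRC to TFR2 differed by 0.23 (exact permutation p = 0.619). The log2 ratio of TF to ALB, the other abundant hepatocyte-made plasma protein mRNA, was -1.06 in A, -2.0 in B and -2.24 in C, against -2.85 to -2.31 in young livers. All old livers were above all young livers in that ratio, with means of -1.77 ± 0.63 in old livers (SD, n = 3) and -2.60 ± 0.21 in young livers (SD, n = 6). The exact permutation p of 0.0238 is the smallest that 84 assignments allow, with an adjusted p of 0.0714. Thus the TF level was lower on average in old livers while its level relative to ALB was higher, beside an ALB log2 fold change of -1.40 (edgeR FDR 0.103). The hepatocyte markers summed to 26552, 105652 and 92989 CPM in A, B and C, against 122789 to 219354 CPM in young livers. ALB itself made up 11955, 69097 and 61356 CPM of these sums in A, B and C, and 90095 to 177159 CPM in young livers. Of the 10 markers tested, edgeR called 0 higher and 0 lower, beside 11.7% and 3.65% of all tested genes. Their log2 fold changes were 2 positive and 8 negative. At an unadjusted edgeR p under 0.05, 1 was higher and 3 lower, beside 2436 and 1139 of all 12277 tested genes. DESeq2 called 1 higher and 3 lower, beside 1689 and 1036 of these genes. Voom called 2 higher and 3 lower, beside 2511 and 2052. The part of hepatocyte RNA in the TF values was not tested.

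**Figure D3:**
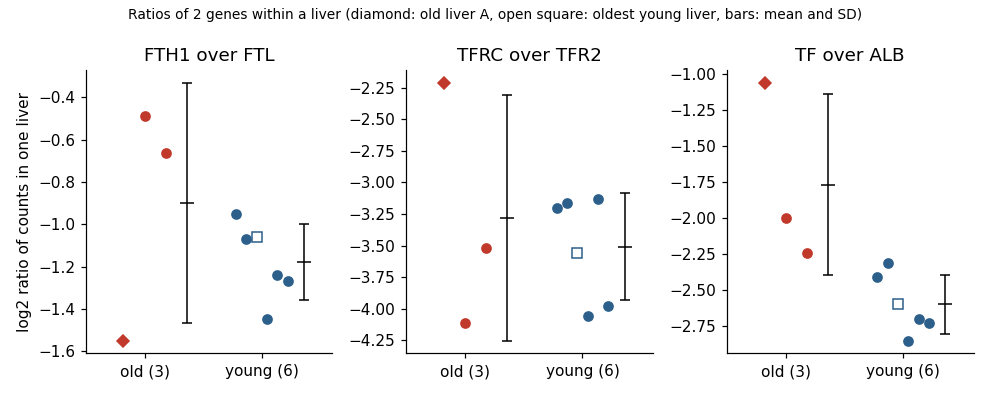
Log2 ratio of FTH1 to FTL, of TFRC to TFR2 and of TF to ALB in each liver, with old livers left of young livers, a point per animal and the bar and whiskers giving mean and SD (n = 3 old, n = 6 young). In the TF to ALB panel the old livers lie between -2.24 and -1.06 and the young livers between -2.85 and -2.31.

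The wider iron pathway was read from 6 lists of its regulators and from BMP-SMAD target genes, 98 genes in the table of which 93 were tested. Of these, 4 were called higher and 5 lower in old livers, beside 11.7% and 3.65% of all tested genes, and the median log2 fold change was -0.20, against 0.02 over all tested genes. The pathway median was -0.08 without A, -0.06 when the oldest young liver was left out as well, and -0.05 with voom, where the medians of all genes were -0.02, -0.01 and 0. Positive log2 fold changes were found for 38 and negative ones for 55, beside 50.8% of all tested genes with a positive value.

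The calls that lie closest to hepcidin were in BMP signalling. Of 8 tested BMP-SMAD target genes, 3 were called higher and 0 lower, beside 11.7% and 3.65% of all tested genes. Their median log2 fold change was 0.40, against 0.02 over all tested genes. ID1, an inhibitor of helix-loop-helix factors and a direct target of the SMAD proteins that BMPs activate, was at 26.0, 51.6 and 36.3 CPM in A, B and C, against a lowest of 2.19 and a highest of 10.8 CPM in young livers. Every old liver lay above every young liver, as for 9.83% of all tested genes, with a log2 fold change of 2.86 (SE 0.43, edgeR FDR 0.0217). Its paralog ID3 was at 74.4, 121 and 72.0 CPM in A, B and C, against 25.4 to 59.8 CPM in young livers, again without overlap, with a log2 fold change of 1.18 (edgeR FDR 0.0522). SMAD7, the inhibitory SMAD that lowers hepcidin transcription in mouse hepatocytes, was at 7.10, 19.6 and 15.1 CPM in A, B and C, against 5.55 to 9.81 CPM in young livers. A lay within the young range, and the SMAD7 call was at the threshold (edgeR FDR 0.0999) and held in 7 of 18 alternatives, being lost without B, without C and without any single young liver. ID3 lost its call without young liver 2, 4 or 6 (edgeR FDR 0.106 to 0.118).

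The list of hepcidin control genes held 16 tested genes, with a median log2 fold change of -0.08. Of these genes, 1 was called higher and 1 lower, beside 11.7% and 3.65% of all tested genes. BMP2, a second endothelial ligand that hepcidin depends on in mice, fell to 5.42, 6.995 and 6.68 CPM in A, B and C, against 13.7 to 23.9 CPM in young livers. The groups did not overlap, as for 17.8% of all tested genes, and the BMP2 log2 fold change was -1.48 (SE 0.28, edgeR FDR 0.0376). STAT3, which carries the interleukin-6 signal to the hepcidin gene, rose to 765, 483 and 415 CPM in A, B and C, against 214 to 278 CPM in young livers. Again there was no overlap, and the STAT3 log2 fold change was 1.13 (SE 0.24, edgeR FDR 0.0395). ID1 and BMP2 kept their calls in all 18 alternatives, and STAT3 lost its call in 1, without young liver 2 (edgeR FDR 0.103). BMP2 is an endothelial ligand, and the sinusoidal endothelial markers summed to 1835, 780 and 794 CPM in A, B and C, against 530 to 942 CPM in young livers. STAB1 (755 CPM) and STAB2 (433 CPM) were the largest parts of the sum in A. A was the highest of all livers for these markers and for CLEC4G, KDR, OIT3, TEK and EHD3. It was the lowest for PECAM1, LYVE1, CDH5 and FCGR2B. Of 11 such markers, STAB1 and CLEC4G were called higher and PECAM1 and FCGR2B lower in old livers, beside 11.7% and 3.65% of all tested genes. The part of endothelial RNA in the BMP2 values was not tested. A pair of genes outside the naming rule was picked after their values were seen: TMPRSS6, the protease that lowers hepcidin by cleaving hemojuvelin, had a log2 fold change of -0.52 (edgeR FDR 0.173, and 0.0727 without the oldest young liver), and hemojuvelin itself (HFE2), the BMP co-receptor, had 0.75 (edgeR FDR 0.258) and rested on A, with 699 CPM in A, 173 in B and 200 in C, and a log2 fold change of -0.19 without A.

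**Figure D4:**
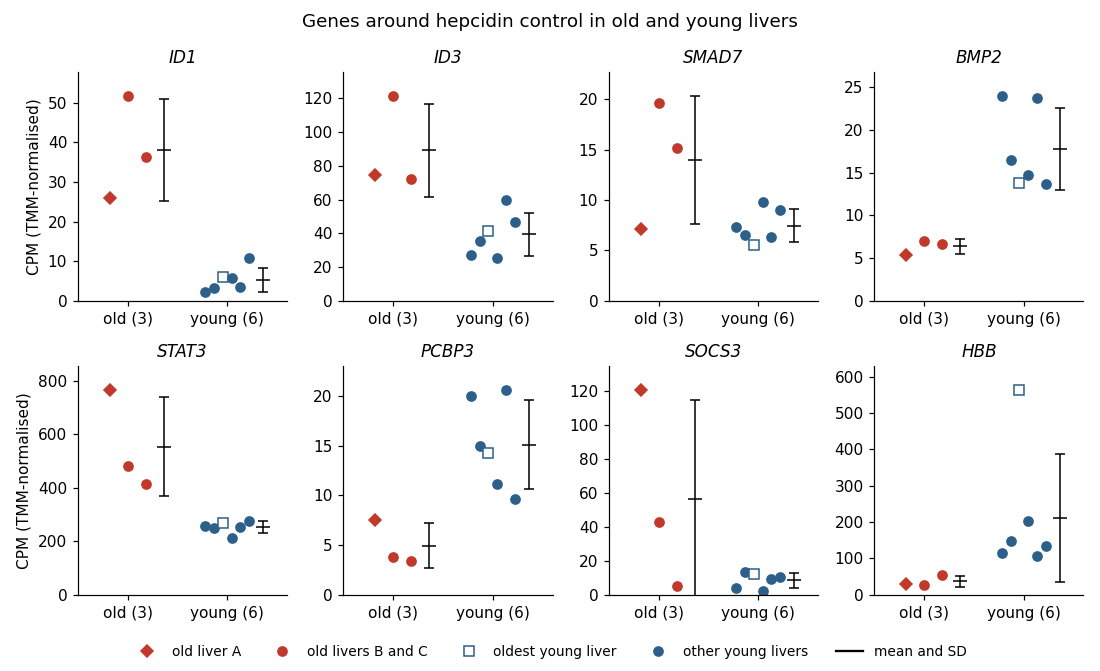
Levels of ID1, ID3, SMAD7, BMP2, STAT3, PCBP3, SOCS3 and HBB in every liver, in CPM on a vertical axis of its own for each panel, with old livers left of young livers, a point per animal and the bar and whiskers giving mean and SD (n = 3 old, n = 6 young; the SOCS3 whisker in old livers is clipped at 0). ID1 and STAT3 lie higher in every old liver (26.0 to 51.6 and 415 to 765 CPM) and BMP2 lower (5.42 to 6.995 CPM) than in every young liver.

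The 10 tested genes of the iron regulatory proteins and ferritin turnover had a median log2 fold change of -0.30. Of these genes, 0 were called higher and 1 lower, beside 11.7% and 3.65% of all tested genes. The call was PCBP3, an RNA-binding relative of the iron chaperone PCBP1, at 7.54, 3.81 and 3.43 CPM in A, B and C, against 9.58 to 20.5 CPM in young livers. PCBP3 fell in old livers with a log2 fold change of -1.62 (edgeR FDR 0.0439) and without overlap, a call lost without young liver 2 (edgeR FDR 0.104). In edgeR, 2 genes of the list were higher and 3 lower at an unadjusted p under 0.05, and voom called 1 higher and 6 lower. Over all 12277 tested genes, these counts were 2436 and 1139 at that p, and 2511 and 2052 with voom.

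Of all 12277 tested genes, 2436 were higher and 1139 lower at an unadjusted edgeR p under 0.05. Among the same genes DESeq2 called 1689 higher and 1036 lower, and voom 2511 and 2052. The counts below are read beside these. Of 15 tested genes for iron uptake, reduction and export, the members themselves left aside, 0 were called with edgeR (2 at an unadjusted p under 0.05, 1 with DESeq2 and 4 with voom), with a median log2 fold change of 0.08. The lowest p-values were those of MCOLN1, a lysosomal cation channel that passes iron, with a log2 fold change of 0.53 (edgeR FDR 0.121), and of SLC22A17, a lipocalin-2 receptor, with 0.55 (edgeR FDR 0.156), which was 0.18 (edgeR FDR 0.571) without A and passed the threshold without B (edgeR FDR 0.089). MCOLN1 passed it without the oldest young liver (edgeR FDR 0.0854). Of 13 tested genes for heme and hemoglobin handling, 0 were called with edgeR (2 at an unadjusted p under 0.05, 1 with DESeq2 and 4 with voom) and the median was -0.27. PGRMC1, a heme-binding membrane protein, had -1.14 (edgeR FDR 0.105) and the transporter FLVCR1 0.97 (edgeR FDR 0.164). FLVCR1 rested on A, with 12.8 CPM in A, 3.86 in B and 2.78 in C, against 2.42 to 4.29 CPM in young livers, and its log2 fold change was 0.01 without A. PGRMC1 was at -0.75 (edgeR FDR 0.194) without A, and without C both PGRMC1 (edgeR FDR 0.0707) and FLVCR1 (edgeR FDR 0.0692) passed the threshold. Of 20 tested mitochondrial iron-sulfur genes, 0 were called with edgeR (2 lower at an unadjusted p under 0.05, 2 lower with DESeq2 and 5 lower with voom) and the median was -0.49, with ABCB10, an inner membrane transporter needed for heme synthesis, at -1.36 (edgeR FDR 0.107) and NFU1, a late iron-sulfur carrier, at -0.79 (edgeR FDR 0.120). NFU1 was at -0.46 (edgeR FDR 0.226) without A and passed the threshold without C (edgeR FDR 0.0976), and ABCB10 passed it without C (edgeR FDR 0.0956) or the oldest young liver (edgeR FDR 0.0419). Without A and the oldest young liver, 0 of these 20 genes were called higher and 5 lower, and the median was -0.20. Over all genes tested in that fit, 14.2% were called higher and 11.7% lower, and the median was -0.01.

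The cytosolic iron-sulfur list held the other calls, 0 higher and 3 lower of 12 tested genes, beside 11.7% and 3.65% of all tested genes. The median log2 fold change of the list was -0.19. NUBP2, a scaffold on which cytosolic clusters are built, was at 3.35, 4.48 and 3.80 CPM in A, B and C, against 6.08 to 12.8 CPM in young livers (log2 fold change -1.05, edgeR FDR 0.0629). FAM96A, which delivers clusters to iron regulatory protein 1 in human cells, was at 23.6, 54.6 and 63.2 CPM in A, B and C, against 73.8 to 115 CPM in young livers (log2 fold change -1.01, edgeR FDR 0.0754). CISD1, a cluster-bearing protein of the outer mitochondrial membrane, was at 33.1, 50.4 and 59.8 CPM in A, B and C, against 60.7 to 142 CPM in young livers (log2 fold change -0.90, edgeR FDR 0.0999). All 3 were lower in every old liver than in any young liver, as were 8.01% of all tested genes. Each call was lost without A and in further fits with 1 young liver left out, with CISD1 at an edgeR FDR of 0.279, NUBP2 at 0.161 and FAM96A at 0.121 without A.

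Acute-phase genes were read beside HAMP because inflammation raises it. Of 14 tested, 1 was called higher and 0 lower, beside 11.7% and 3.65% of all tested genes. The median log2 fold change was 0.07. The call was SOCS3, a feedback inhibitor of STAT3 signalling, at 121, 43.2 and 5.05 CPM in A, B and C, against 2.01 to 13.5 CPM in young livers. The SOCS3 fold change (log2 2.72, edgeR FDR 0.0602) thus came from A and B, and C lay within the young range. Without A the SOCS3 value was 1.499 (edgeR FDR 0.328), and the call was also lost without young liver 1, 2, 4, 5 or 6 (edgeR FDR 0.104 to 0.118). In the fit without A and the oldest young liver, in which HAMP was called, the median of the 14 acute-phase genes was 0.41. Of these genes, 3 were called higher and 0 lower, beside 14.2% and 11.7% of all genes tested in that fit. The 3 were the plasma proteins ORM1 (log2 fold change 1.51, edgeR FDR 0.0218), CRP (0.98, edgeR FDR 0.0465) and SERPINA3 (0.56, edgeR FDR 0.0879), while SOCS3 was not called (edgeR FDR 0.255). Voom called 5 of the list higher and 0 lower on all 9 livers, beside 2511 and 2052 of all 12277 tested genes. The part of inflammation in the HAMP values was not tested.

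The genes whose profile over the 9 livers was most like that of HAMP on the log2 CPM scale were PHLDA3 (Pearson r 0.911, Spearman rho 0.933), TNFSF9 (0.886 and 0.85), TMEM251 (0.874 and 0.783), CHI3L1 (0.873 and 0.867) and EXOSC6 (0.869 and 0.933). For TF they were SRPR, the signal recognition particle receptor (0.984 and 0.95), EXTL3 (0.979 and 0.95), GLUL, the glutamine synthetase of pericentral hepatocytes (0.974 and 0.967), SNX7 (0.974 and 0.917) and AGGF1 (0.972 and 0.917). Among members, FTH1 and FTL had an r of 0.84, TF and HFE 0.85, TFRC and TFR2 0.81, and TFRC and SLC40A1 -0.91. All these values share the same 9 libraries, of which A and the oldest young liver stand apart, and they are given as descriptions.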

How the data were processed

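The authors aligned reads with STAR 2.4.1d and counted them per gene with HTSeq, per the labels, and deposited raw counts, 1 column per liver. The strand setting is not given in the sources used here. Of 16339 rows, 93 shifted rows (0.319% of counts) and 25 rows whose symbols had become dates (0.133%) were left out, none of them a member. Genes were filtered with filterByExpr, scaled by TMM and tested for old over young with edgeR 4.0.16 (robust quasi-likelihood test, R 4.3.3), and p-values were adjusted over all 12277 tested genes (Benjamini-Hochberg, FDR 0.1). Ratios within livers were tested by exact two-sided permutation over 84 assignments (SciPy). Depth was 14541856 to 20464409 counts per liver. DESeq2 1.42.0, limma 3.58.1 (voom), other scalings and filters, and fits leaving out livers were alternatives. The most similar pair of libraries, B and C, differed beyond sampling noise (chi-square over degrees of freedom 27.6).

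The members were set by symbol and role, and they, the gene lists and the tests were chosen with earlier results of these data known. Named list genes were those called, and otherwise the 2 of lowest p in a list. Members were matched by symbol, and 9 of 10 also matched a RefSeq table by symbol regardless of case (TF did not). Its build differs from that of the files, so no coordinates are given. CPM were computed from the deposited counts with TMM-scaled totals. P-values of the edgeR, DESeq2 and voom fits judge the difference between age groups against the spread between animals. Those of the ratios come from reassigning livers to the age groups.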

Additional observations from a re-analysis of the deposited data

Results flagged for a closer look

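Among 13 groups of young livers examined (the tested members, BMP6 and the 3 ratios), 2 held a liver far from the other 5, and chance alone marks about 1 group in 20. FTH1 in the oldest young liver was 963 CPM, with a gap to the next liver of 0.755 of the group's range, above the limit of Dixon's test for 6 samples. HFE in the same liver was 22.0 CPM, with a gap of 0.903 of the range, also above that limit.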

How the results depend on the processing

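Members called higher numbered 1 with all livers, 2 with DESeq2, 3 with voom, 0 at an FDR of 0.05, 3 when A and the oldest young liver were both left out, and 0 to 2 with 1 liver left out. Members called lower numbered 0, with 1 under voom and 1 without that pair. Over all genes, 1437 higher became 2511 with voom, 330 at an FDR of 0.05 and 125 to 2071 with 1 liver left out. The 448 lower became 1058 with DESeq2 (over the 13340 genes that it tested), 2052 with voom, 90 at an FDR of 0.05, 1451 without the pair and 62 to 862 with 1 liver left out. For the pathway lists, 4 higher became 11 with voom, 2 at an FDR of 0.05, 8 without the pair and 1 to 7 with 1 left out, and 5 lower became 10 with DESeq2, 20 with voom, 2 at an FDR of 0.05, 16 without the pair and 1 to 10 with 1 left out. Log2 fold changes changed sign for TFRC (voom -0.12, without the pair -0.17, 1 left out -0.19 to 1.24), FTH1 (1 left out -0.24 to 0.43, but 0.64 with voom and 0.67 without the pair, both called), FTL (voom 0.05, without the pair 0.024), SLC40A1 (voom 0.018) and HFE2 (voom -0.033, without the pair -0.057, without A -0.187). Of these sign-changing genes, edgeR called none on all 9 livers. The TFRC to TFR2 ratio ran between -0.302 and 0.646 with 1 left out and was -0.31 without the pair. The TF to ALB difference was 0.479 to 1.07 with 1 left out (adjusted exact permutation p 0.107 to 0.214) and 0.48 without the pair (0.143), designs in which 1 ratio alone cannot pass after adjustment. The cause of these changes was not tested. No paired analysis was possible because each library came from a different animal and the labels link no old animal to a young one. With 3 old livers, intervals of over 1 log2 unit remain for most members, and depth limits BMP6 alone.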

Other observations

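Other iron genes differed between old liver A with the oldest young liver and the other 7, picked after their values were seen. SLC39A14, the importer of iron not bound to transferrin, was at 113 CPM in A and 39.1 CPM in the oldest young liver, against 204 to 324 CPM in the other 7. TMPRSS6 was at 147 CPM in A and 160 CPM in the oldest young liver, against 167 to 297 CPM in the other 7, and HFE at 12.5 and 22.0 CPM, against 48.4 to 65.8 CPM. These livers did not share every departure, since FTH1 was at 216 CPM in A and 963 CPM in the oldest young liver, against 410 to 773 CPM.

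Without A and the oldest young liver, further regulators passed the threshold in edgeR, also picked after their values were seen. The iron regulatory proteins ACO1 (log2 fold change -0.57, FDR 0.029) and IREB2 (-0.41, FDR 0.0412) were lower in old livers, as was FBXL5, the iron-sensing ubiquitin ligase subunit that removes IREB2 (-0.53, FDR 0.0326), and TMPRSS6 (-0.54, FDR 0.0382). HMOX1, the inducible heme oxygenase that frees iron from heme, was higher (0.90, FDR 0.0152). Calls were common in that fit, with 14.2% of all tested genes higher and 11.7% lower. With all livers, edgeR called none of these genes. IREB2 then had a log2 fold change of 0 (FDR 0.999). It was at 137, 69.2 and 69.8 CPM in A, B and C, against 86.9 to 98.9 CPM in young livers. ACO1 was at -0.34 (FDR 0.327), FBXL5 at -0.49 (FDR 0.124), TMPRSS6 at -0.52 (FDR 0.173) and HMOX1 at 0.41 (FDR 0.439).

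Blood and stromal genes moved as well. The hemoglobin genes HBA2 (log2 fold change -2.36) and HBB (-2.52) and the erythroid heme enzyme gene ALAS2 (-1.85) fell in old livers (HBB lost its call without A, at an edgeR FDR of 0.144, and without young liver 2, 4 or 6, at 0.101 to 0.106). Of 10 tested stellate cell markers, edgeR called 0 higher and 4 lower, beside 11.7% and 3.65% of all tested genes. The stellate sum was 111, 161 and 147 CPM in A, B and C, against 219 to 305 CPM in young livers.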
